A study of Rattus norvegicus with 6 samples.

Results

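The miR-23, miR-27 and miR-24 families are short regulatory RNAs made from 2 paralogous clusters of 3 hairpins each. Their rows in the deposited count table were found by name, as every rat miRNA with the stem miR-23a, miR-23b, miR-27a, miR-27b or miR-24 on either strand. There were 11 such rows among 650 mature miRNAs: the 5 abundant 3p strands rno-miR-23a-3p, rno-miR-23b-3p, rno-miR-27a-3p, rno-miR-27b-3p and rno-miR-24-3p (given without the rat prefix from here on), and 6 partner strands from the 5p arms. The tissue was the trigeminal ganglion, which holds the sensory neuron cell bodies of the face, of Sprague-Dawley rats aged 8 to 10 weeks. In the 3 CCI-ION libraries the left infraorbital nerve had been tied loosely with silk (chronic constriction injury of the infraorbital nerve, a neuropathic pain model), and in the 3 sham libraries the nerve had been exposed on the same side without ligation. Ganglia of the operated side were taken on day 14. Whether the 3 libraries of a group are 3 different rats is not stated, and p-values therefore reflect library-to-library spread, part of which could be technical.

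A miRNA guides silencing of messenger RNAs that pair with its seed, bases 2 to 8 from the 5′ end. One strand of each hairpin is usually kept as the guide and its partner strand is mostly degraded. The miR-23/27/24 clusters are conserved in vertebrates and are best known from blood vessels, muscle, fat and lymphocytes, where miR-27 restrains fat cell formation and miR-23 and miR-27 act in vessel growth. miR-23a and miR-23b have also been studied in the mouse spinal cord in models of neuropathic pain.

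The 5 abundant strands, as the deposited table lists them and with the seed in capitals, show which members can pair with the same targets and how little separates the paralogs.
miR-27b-3p: tTCACAGTggctaagttctgc
miR-27a-3p: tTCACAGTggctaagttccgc
miR-23b-3p: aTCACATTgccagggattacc
miR-23a-3p: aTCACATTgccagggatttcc
miR-24-3p: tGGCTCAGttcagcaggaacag

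miR-27a-3p and miR-27b-3p share their seed with each other and with no other listed miRNA, as do miR-23a-3p and miR-23b-3p. No other listed miRNA has the seed of miR-24-3p. Counted from 1 at the 5′ end, miR-27b-3p and miR-27a-3p differ only by T19C, and miR-23b-3p and miR-23a-3p only by A19T. The rule by which the authors assigned reads that fit both paralogs is not known here, so the split between the a and b forms is uncertain.

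The partner strands that tell the hairpins of miR-24 and miR-27 apart follow, again with bases 2 to 8 in capitals.
miR-24-1-5p: gTGCCTACtgagctgatatcag
miR-24-2-5p: gTGCCTACtgagctgaaacagt
miR-27a-5p: aGGGCTTAgctgcttgtgagca
miR-27b-5p: aGAGCTTAgctgattggtgaacag

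In the RefSeq table of rat miRNAs (build GRCr8, not the authors' build rn6) the b cluster lies on the minus strand of chromosome 17, with Mir23b at chr17:1819386-1819482, Mir27b at chr17:1819147-1819243 and Mir24-1 at chr17:1818669-1818736. It spans 814 bases and overlaps the gene Aopep, which encodes an aminopeptidase. Mir24-1 also overlaps Fancc, a Fanconi anaemia gene, and Mir3074. The a cluster lies on the minus strand of chromosome 19, with Mir23a at chr19:40859769-40859843, Mir27a at chr19:40859603-40859689 and Mir24-2 at chr19:40859455-40859562. It spans 389 bases and overlaps no other gene of that annotation. Each of the 11 deposited sequences was found in a hairpin of the table. The 2 hairpins that give miR-24-3p are shown in RNA letters with that strand in capitals, because they differ elsewhere while the mature strand is the same in both.
Mir24-1: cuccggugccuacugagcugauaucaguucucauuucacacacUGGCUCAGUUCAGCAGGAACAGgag
Mir24-2: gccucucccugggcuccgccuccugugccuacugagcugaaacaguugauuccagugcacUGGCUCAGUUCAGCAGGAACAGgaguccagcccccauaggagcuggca

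A miR-24-3p read therefore cannot be given to either cluster, whereas miR-24-1-5p and miR-24-2-5p, which differ at A17T, C19T, A20C, G21A and T22G (miR-24-2-5p first), can.

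Total miRNA counts ranged from 6420434 to 11014970 in the CCI-ION libraries and from 10084327 to 12560545 in the sham libraries. Set at 3 counts, the detection floor was 0.239 to 0.467 CPM (counts scaled by each library's miRNA total and TMM factor), which covers counting error only, because the deposited values carry no molecular identifiers. Libraries with the same replicate number deviated together from their group means. Results are therefore read in a fit with group alone and, where it matters, in a fit with the number as a block. Marker lists of cell types were chosen with earlier results of these data known. Of the listed markers of sensory neurons, miR-182 averaged 24522 ± 4587 CPM in CCI-ION and 22976 ± 3595 CPM in sham (SD, n = 3 each). miR-183-5p averaged 14253 ± 999 CPM and 15770 ± 1376 CPM in the same order (SD, n = 3 each). Of the 6 markers in that list, 1 had a positive and 5 a negative log2 fold change, CCI-ION over sham, with group alone (list median -0.16). Muscle markers were also present, with summed levels of 3342 to 8419 CPM in CCI-ION and 5198 to 10675 CPM in sham. In whole ganglia, fewer cells of a type and less RNA per cell cannot be told apart.

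The 11 rows held 7.67%, 9.26% and 8.08% of all miRNA counts in CCI-ION libraries 1 to 3, against 8.76%, 10.3% and 8.47% in sham libraries 1 to 3. The means were 8.34% ± 0.83 in CCI-ION and 9.16% ± 0.96 in sham (SD, n = 3 each), and the groups overlapped. Almost all of this was the 5 abundant strands, while the 6 partner strands together held 0.121% to 0.135% of miRNA counts in any library. miR-27b-3p alone made up 58.2% to 70.5% of the counts of the 11 rows.

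**Figure D1:**
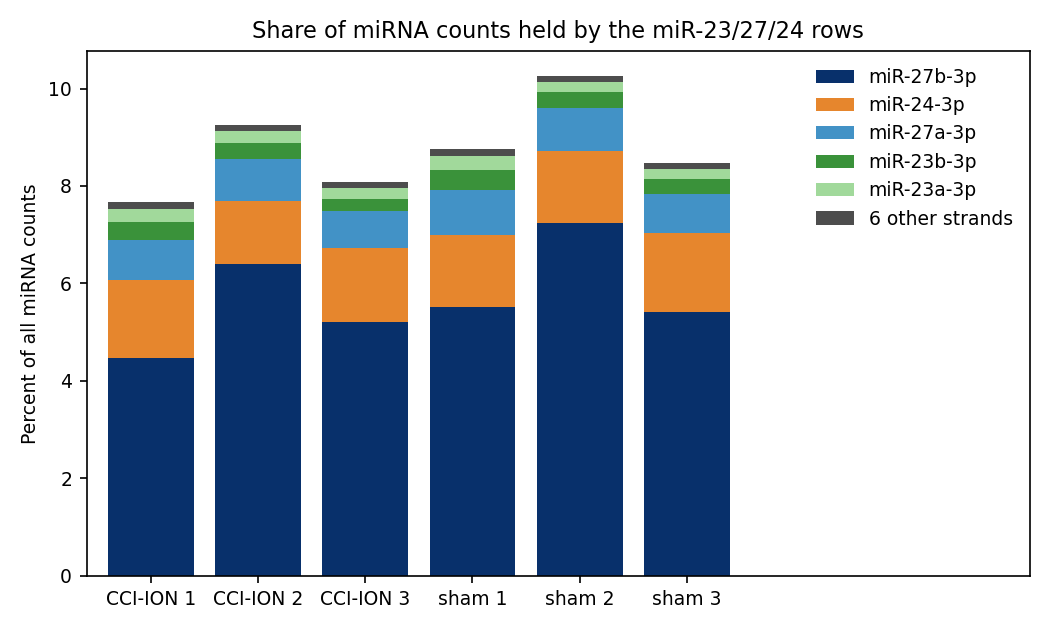
Stacked bars give the percent of all miRNA counts held by each of the 5 abundant strands and by the 6 partner strands together, for CCI-ION libraries 1 to 3 and sham libraries 1 to 3. Totals run from 7.67% in CCI-ION 1 to 10.3% in sham 2, and miR-27b-3p is the largest part in all 6 libraries.

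miR-27b-3p, the strongest member, ranked 4th of 650 miRNAs by mean level and between 4th and 6th in single libraries. It had 42376, 66142 and 54000.5 CPM in CCI-ION libraries 1 to 3, against 52071, 74660 and 54766 CPM in sham libraries 1 to 3. Library 1 was the lowest and library 2 the highest in both groups, and the groups overlapped.

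miR-24-3p, the strand that both clusters make, ranked 15th. It had 15286, 13334 and 15564 CPM in CCI-ION, against 13818, 15219 and 16430 CPM in sham. miR-27a-3p, which has the seed of miR-27b-3p, ranked 18th and had 7740, 8884 and 7831 CPM in CCI-ION, against 8742, 9222 and 8219 CPM in sham. For both miRNAs the groups overlapped. The spread of miR-27a-3p within groups was 0.098 on the log2 scale, against 0.302 for miR-27b-3p and a median of 0.203 over the 68 miRNAs with a mean of at least 1000 CPM.

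miR-23b-3p ranked 41st, with 3461, 3463 and 2657 CPM in CCI-ION against 3896, 3418 and 3101 CPM in sham. miR-23a-3p ranked 50th, with 2654, 2548 and 2230 CPM in CCI-ION against 2847, 2110 and 1948 CPM in sham. Over all 6 libraries the levels of these 2 neighbours in the order overlapped, since miR-23a-3p in sham 1 exceeded miR-23b-3p in CCI-ION 3. Within either group alone they did not overlap, although CCI-ION libraries came close, with a lowest miR-23b-3p level of 2657 CPM and a highest miR-23a-3p level of 2654 CPM. The 3 highest members, miR-27b-3p, miR-24-3p and miR-27a-3p, did not overlap with the next member down in that order.

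The partner strands formed a second tier. miR-24-2-5p was by far the strongest, ranking 70th, with 950.2, 1009 and 1006 CPM in CCI-ION against 992.3, 955.8 and 980.8 CPM in sham. Its spread within groups was 0.040 on the log2 scale. Of the 68 miRNAs with a mean of at least 1000 CPM, only 1 had a smaller spread. miR-24-2-5p itself, with a mean of 982 CPM, falls just below that set. Its counterpart from the b cluster, miR-24-1-5p, had 99.5, 114.7 and 126 CPM in CCI-ION against 120.5, 137.7 and 140.1 CPM in sham.

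miR-27a-5p, the partner of miR-27a-3p, had 111.7, 78.5 and 107.3 CPM in CCI-ION against 76.1, 75.4 and 81.1 CPM in sham. CCI-ION 1 and 3 lay above every sham library and CCI-ION 2 lay within the sham range. miR-27b-5p had 89.9, 63.9 and 84.1 CPM in CCI-ION against 73.7, 70.1 and 79.7 CPM in sham, so its CCI-ION libraries lay on both sides of the sham range. Levels of miR-27a-5p, miR-27b-5p and miR-24-1-5p overlapped between neighbours over the 6 libraries.

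The partner strands of miR-23 were rare. miR-23b-5p had 23.4, 9.49 and 13 CPM in CCI-ION against 12.5, 11 and 13.4 CPM in sham, with CCI-ION 1 far above the others. miR-23a-5p had 19, 5 and 2 counts in CCI-ION against 5, 4 and 4 counts in sham, close to the floor of 3 counts, and did not pass the filter on low counts. The other 10 rows passed and were tested.

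**Figure D2:**
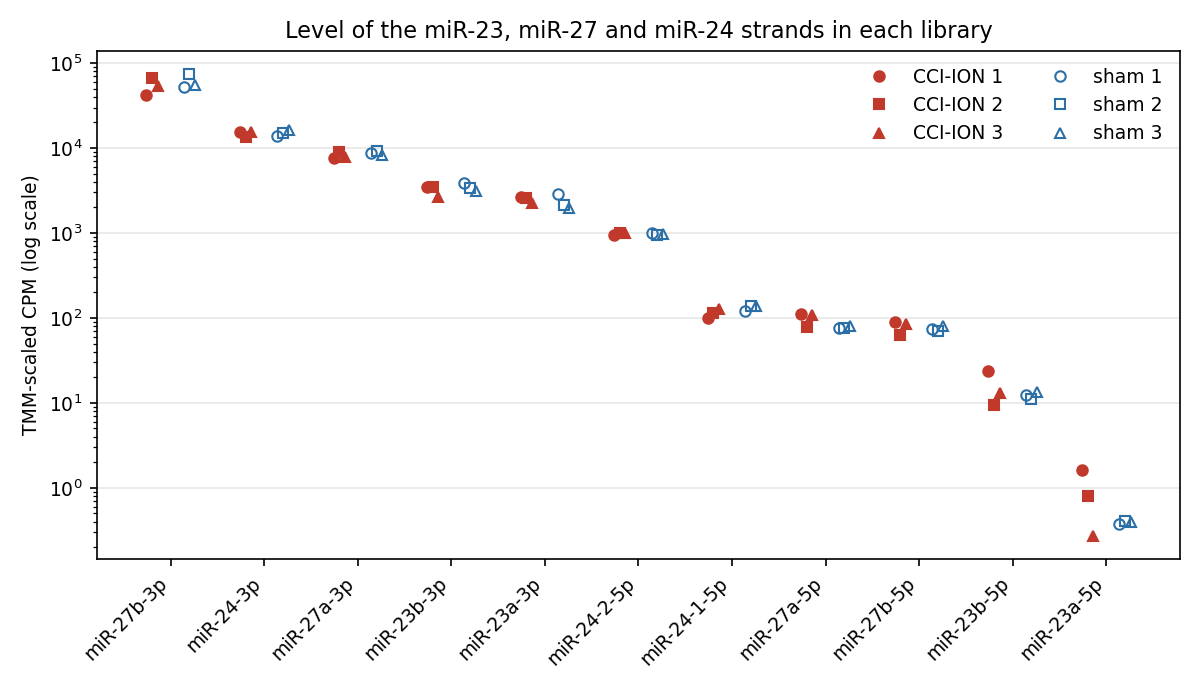
Each point is the TMM-scaled CPM of one miRNA in one library (log axis), with CCI-ION libraries filled on the left and sham libraries open on the right of each name, and the marker shape giving the replicate number. No tested miRNA separates the groups completely, and CCI-ION 1 stands out for miR-23b-5p and miR-23a-5p.

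Whether levels differed between injured and sham ganglia on day 14 was read from fits over all miRNAs. None of the 10 tested members was called by the quasi-likelihood test of edgeR (adjusted p under 0.05 over all 463 tested miRNAs), either with group alone, where 0.648% of all tested miRNAs were called (0.216% higher and 0.432% lower), or with the replicate block, where 11.7% were (6.05% higher and 5.62% lower). None of the 10 had an unadjusted p under 0.05 with group alone, where 9.94% of all tested miRNAs had one, and 2 had one with the block, miR-24-1-5p and miR-27a-5p, where 21.4% did. DESeq2 called none of the 10 in either design, against 1.94% of all tested miRNAs with group alone and 9.5% with the block. limma-voom called none with group alone, against 0.648%, and 1, miR-27a-5p, with the block, against 12.1%. No tested member was free of overlap between the groups in CPM, where 13.8% of all tested miRNAs were (6.7% higher and 7.13% lower).

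With group alone the log2 fold changes, CCI-ION over sham, were small for the 5 abundant strands. miR-27b-3p averaged 54173 ± 11884 CPM in CCI-ION and 60499 ± 12338 CPM in sham (SD, n = 3 each). Its log2 fold change was -0.16 ± 0.21 (SE, edgeR adjusted p = 0.923). Its 95% interval ran from -0.65 to 0.33, and without sham library 2 the value was 0.016. With the block the value was -0.16 ± 0.09, with an interval from -0.34 to 0.02 (edgeR adjusted p = 0.279).

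miR-24-3p had a log2 fold change of -0.04 ± 0.13, with an interval from -0.34 to 0.26, and its sign depended on the scaling, at 0.060 under upper quartile factors, and on single libraries, at 0.039 without CCI-ION library 2 and 0.020 without sham library 3. miR-27a-3p had -0.10 ± 0.12 (interval -0.38 to 0.19). Its value was -0.0097 under upper quartile factors, and without single libraries it ran from -0.055 (CCI-ION library 3) to -0.15 (CCI-ION library 2). miR-23b-3p had -0.12 ± 0.16 (interval -0.49 to 0.25), which was 0.0095 without CCI-ION library 3. miR-23a-3p alone of the 5 had a positive value, 0.11 ± 0.18 (interval -0.30 to 0.52), which was -0.0014 without sham library 3 and -0.23 on the totals behind the RPM values. Their edgeR adjusted p-values ranged from 0.919 to 0.971. The median of the 5 was -0.10, against 0.01 for all tested miRNAs.

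When the counts of near-identical paralogs were summed before the fit, so that the split between the a and b forms did not enter, the differences were no clearer. The summed miR-27a-3p and miR-27b-3p had a log2 fold change of -0.12 ± 0.19, and the summed miR-23a-3p and miR-23b-3p had -0.0038 ± 0.17 (edgeR adjusted p = 0.963 and 0.996). With the block these values were -0.13 ± 0.09 and 0.0018 ± 0.09.

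Among the partner strands, miR-27a-5p had the largest value. It averaged 99.2 ± 18.1 CPM in CCI-ION and 77.5 ± 3.11 CPM in sham (SD, n = 3 each), and its log2 fold change was 0.36 ± 0.17 (edgeR adjusted p = 0.538). It was higher in CCI-ION in 3 of 3 pairs of libraries with the same number, by 0.55, 0.06 and 0.40 on the log2 scale. With the block its value was 0.34 ± 0.12, and the adjusted p was 0.0569 with edgeR, 0.135 with DESeq2 and 0.0406 with limma-voom. The call of this strand thus differed between tools, and under upper quartile factors with the block edgeR also called it (log2 fold change 0.43, adjusted p = 0.00677), where 13% of all tested miRNAs were called, 9.29% higher and 3.67% lower. On the totals behind the RPM values with the block its value was -0.0029.

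miR-24-1-5p averaged 113.4 ± 13.3 CPM in CCI-ION and 132.8 ± 10.7 CPM in sham (SD, n = 3 each), and its log2 fold change was -0.23 ± 0.15 (edgeR adjusted p = 0.789, and 0.227 with the block). The value was -0.14 without CCI-ION library 1 and -0.14 under upper quartile factors. It was lower in CCI-ION in 3 of 3 numbered pairs, with log2 differences of -0.28, -0.26 and -0.15. miR-24-2-5p had a log2 fold change of 0.02 ± 0.12 (interval -0.26 to 0.30), and of -0.33 on the totals behind the RPM values. miR-27b-5p had 0.09 ± 0.17, which was -0.25 on those totals and -0.011 without CCI-ION library 1. miR-23b-5p had 0.33 ± 0.33, and this value rested on CCI-ION library 1, without which it was -0.12. In all, 4 of the 10 tested members kept 1 direction in the 3 numbered pairs, while 43.6% of all tested miRNAs did. Of the 4, miR-27b-3p, miR-27a-3p and miR-24-1-5p were lower, as were 23.5% of all tested miRNAs, and miR-27a-5p was higher, as were 20.1%.

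**Figure D3:**
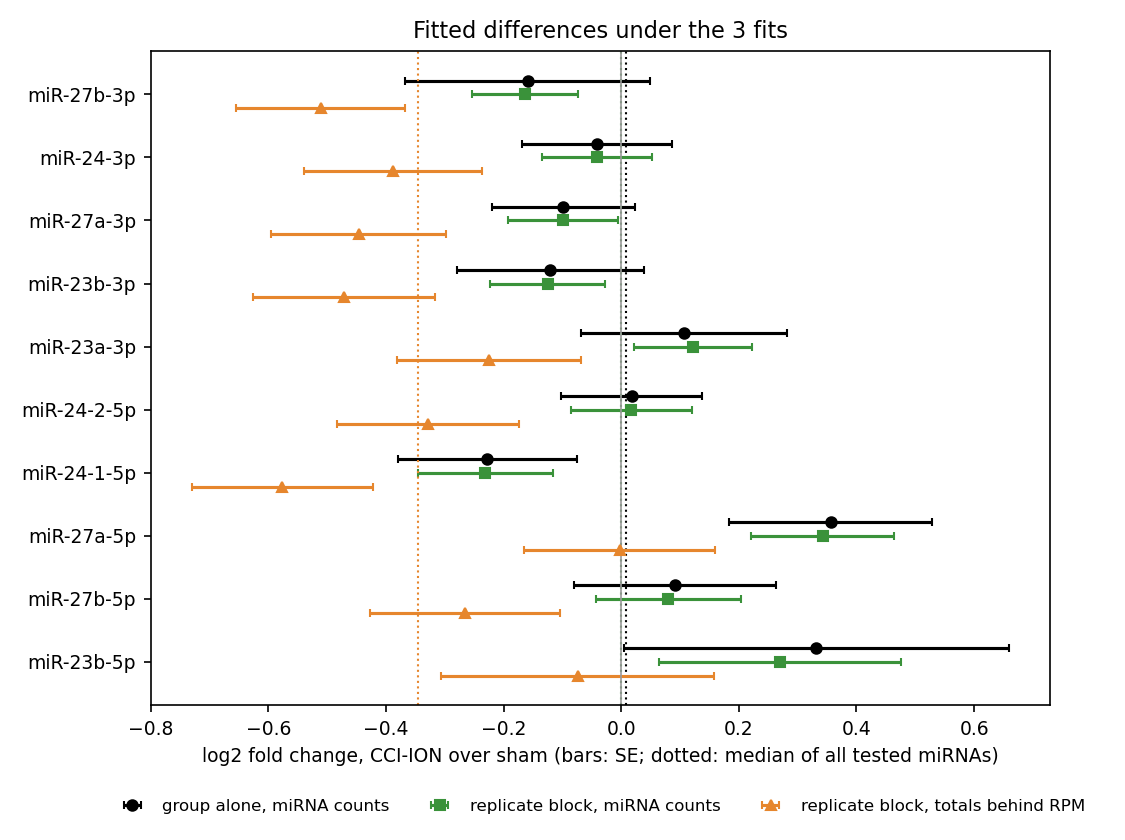
Points give the log2 fold change, CCI-ION over sham, of the 10 tested members with SE bars, for edgeR with group alone, with the replicate block, and with the block after scaling to the totals that the RPM values imply. Dotted lines mark the median of all tested miRNAs in each fit, 0.0084, 0.00025 and -0.35, and miR-27a-5p lies farthest above the line in all 3 fits.

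The authors' RPM values divide the counts by a larger total than that of the miRNAs. miR-23b-3p had 1655, 1537 and 1432 RPM in CCI-ION against 2159, 2205 and 2040 RPM in sham, and miR-27a-3p had 3701, 3942 and 4220 RPM against 4844, 5949 and 5406 RPM in the same order. Together with miR-23a-3p and miR-24-2-5p these made 4 of the 10 tested members whose CCI-ION libraries were all below the sham libraries, where 29.4% of all tested miRNAs were. No member had all CCI-ION libraries above the sham libraries, where 1.08% of all tested miRNAs did, and 30.5% separated in either direction. miR-27b-3p, with 20262.5 to 29349.5 RPM in CCI-ION and 28853 to 48165 RPM in sham, overlapped.

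With libraries scaled to those totals and the replicate block, edgeR called 5 of the 10 members lower and none higher, where it called 34.1% of all tested miRNAs, 32.8% lower. The 5 were miR-27b-3p (log2 fold change -0.51 ± 0.14, adjusted p = 0.00759), miR-24-1-5p (-0.58 ± 0.15, adjusted p = 0.0054), miR-23b-3p (-0.47 ± 0.16, adjusted p = 0.0197), miR-27a-3p (-0.45 ± 0.15, adjusted p = 0.0217) and miR-24-3p (-0.39 ± 0.15, adjusted p = 0.043). The median of all tested miRNAs stood at -0.35 in that fit. Relative to it, the 5 members were at -0.17, -0.23, -0.13, -0.10 and -0.04. With group alone on this scale none of the 10 was called, while 1.3% of all tested miRNAs were (0.216% higher and 1.08% lower). All miRNA counts together were 49.0% ± 5.87 of the total behind the RPM values in CCI-ION and 61.8% ± 8.25 in sham (SD, n = 3 each), and what that total counts is not stated.

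Ratios between 2 miRNAs of one library do not depend on the scaling. A set of 12 was compared by exact permutation (two-sided), where 3 libraries against 3 cannot give a p below 0.1. Groups were free of overlap for 1 of the 12 ratios, where 15.6% of the ratios of all pairs of tested miRNAs were. After Benjamini-Hochberg adjustment over the 12, the smallest p was 0.72.

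That ratio was miR-23a-3p over miR-23b-3p, the a form against the b form. It was 0.767, 0.736 and 0.839 in CCI-ION libraries 1 to 3, against 0.731, 0.617 and 0.628 in sham libraries 1 to 3. The mean difference was 0.25 on the log2 scale (two-sided exact permutation p = 0.1, exact sign-flip p over the numbered pairs 0.25, both the smallest possible), and it was higher in CCI-ION in 3 of 3 pairs. Leaving out 1 library at a time gave 0.19 to 0.32. The lowest CCI-ION value, 0.736, was close to the highest sham value, 0.731, and the 2 sequences differ by 1 base.

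The same ratio for miR-27 overlapped between the groups. miR-27a-3p over miR-27b-3p was 0.183, 0.134 and 0.145 in CCI-ION, against 0.168, 0.124 and 0.15 in sham, a log2 difference of 0.06 (exact permutation p = 0.8) that was -0.065 without CCI-ION library 1 and -0.056 without sham library 2. Library 1 had the highest and library 2 the lowest value in both groups. In the deposited counts the b form of miR-27 outnumbered the a form in every library, by more than for miR-23, with the split between the forms uncertain in both.

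Within the b cluster, miR-23b-3p over miR-27b-3p averaged 0.059 in CCI-ION and 0.058 in sham (geometric means, exact permutation p = 0.9), and the sign of the difference changed without CCI-ION library 1 or sham library 2, at -0.19 and -0.13 on the log2 scale. Within the a cluster, miR-23a-3p over miR-27a-3p averaged 0.304 in CCI-ION and 0.260 in sham, higher in CCI-ION in 3 of 3 pairs (exact permutation p = 0.3). Its log2 difference of 0.22 was 0.13 without CCI-ION library 1, 0.13 without sham library 2 and 0.38 without sham library 1. The ratio of miR-23 over miR-27 was farther from 1 for the b forms than for the a forms in each of the 6 libraries. Both ratios rest on the uncertain split of reads between paralogs, and how evenly different sequences were captured was not tested. miR-24-3p over miR-27b-3p averaged 0.276 in CCI-ION and 0.253 in sham, and miR-24-3p over miR-23b-3p averaged 4.64 in CCI-ION and 4.37 in sham (geometric means, exact permutation p = 0.8 for both).

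The abundant strand outnumbered its partner by factors that differed between hairpins. In the order CCI-ION then sham, the geometric means were 679 and 802 for miR-27b-3p over miR-27b-5p, 221 and 281 for miR-23b-3p over miR-23b-5p, and 83 and 112.4 for miR-27a-3p over miR-27a-5p. In these counts miR-27a thus had the highest share of partner strand among these 3 hairpins. The levels of miR-27a-5p and miR-27b-5p were close, with means of 88.4 and 76.9 CPM over the 6 libraries. The contrast between miR-27a and miR-27b therefore rests mainly on the 3p counts, whose split between paralogs is uncertain. For miR-23b the means were 13.8 CPM for the 5p strand and 3333 CPM for the 3p strand, against 8440 CPM for miR-27a-3p. The contrast between miR-27a and miR-23b therefore rests on the 5p counts. How evenly the strands were captured was not tested. For miR-23a, miR-23a-3p over miR-23a-5p was 1579, 2880 and 6631 in CCI-ION and 6892, 4606 and 4313 in sham, resting on the few counts of the partner.

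miR-27a-3p over miR-27a-5p was 69.2, 113.1 and 72.9 in CCI-ION, against 114.8, 122.2 and 101.3 in sham. It was lower in CCI-ION in 3 of 3 pairs, by a mean of -0.44 on the log2 scale (two-sided exact permutation p = 0.2, exact sign-flip p = 0.25), and the groups overlapped through CCI-ION 2. Among the 133 hairpins named with both strands tested, 6.77% had a strand ratio without overlap between groups. miR-27b-3p over miR-27b-5p was also lower in 3 of 3 pairs, with a mean of -0.24 (exact permutation p = 0.5), but was 0.023 without CCI-ION library 1.

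The partner strands of the 2 hairpins of miR-24 differed in level. miR-24-3p outnumbered miR-24-2-5p by 14.9 in CCI-ION and 15.5 in sham, and miR-24-1-5p by 130.1 and 114.1 (geometric means). The ratio of miR-24-1-5p over miR-24-2-5p, which was chosen after the values were seen, was 0.105, 0.114 and 0.125 in CCI-ION, against 0.121, 0.144 and 0.143 in sham. It was lower in CCI-ION in 3 of 3 pairs, by a mean of -0.25 on the log2 scale, and the groups overlapped (exact permutation p = 0.2, two-sided, and 0.65 adjusted over all 13 ratios). Of the miR-24 partner strands, the one from the a cluster thus had the more counts in every library.

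**Figure D4:**
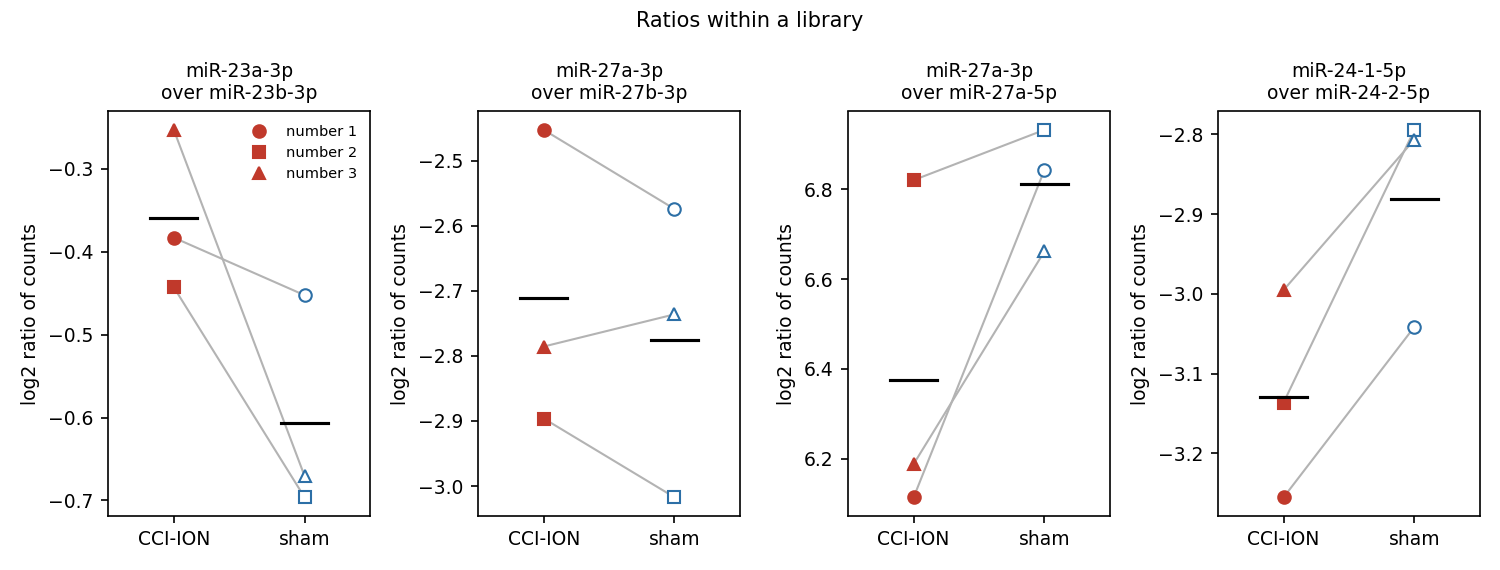
Points give the log2 ratio of counts of 2 miRNAs in each library, CCI-ION filled on the left and sham open on the right, with the shape for the replicate number, grey lines joining libraries of the same number and black bars for group means. Of the ratios shown, only miR-23a-3p over miR-23b-3p is free of overlap. Among the ratios of all pairs of tested miRNAs, 15.6% are. Each axis covers a different range.

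Bases 2 to 7 of miR-27 were found at positions 1 to 9 of 8 other listed miRNAs, nearest to the 5′ end in miR-128-3p and miR-673-5p. miR-128-3p, a neuronal miRNA (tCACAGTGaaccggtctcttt), carries these bases 1 place nearer to its 5′ end, so that its own bases 2 to 8 differ from the seed of miR-27. It had 3704, 2644 and 3649 CPM in CCI-ION against 4572, 3852 and 4597 CPM in sham, without overlap. Of all tested miRNAs, 7.13% were lower in CCI-ION without overlap. With group alone it was not called (log2 fold change -0.38 ± 0.17, edgeR adjusted p = 0.496), and with the block it fell (-0.39 ± 0.10, edgeR adjusted p = 0.00244). miR-673-5p (cTCACAGCtccggtccttggag), which has them at the same place as miR-27, averaged 10.2 ± 2.36 CPM in CCI-ION and 10.2 ± 3.17 CPM in sham (SD, n = 3 each). miR-3074 (gATATCAGctcagtaggcaccg) comes from the strand opposite Mir24-1 and was looked at for that position after values were seen. It had 40.7 ± 4.92 CPM in CCI-ION and 45.4 ± 5.97 CPM in sham (SD, n = 3 each) and was not called (edgeR adjusted p = 0.899, and 0.589 with the block).

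The miRNAs most like each member across the 6 libraries were ranked by Pearson's r of log2 CPM, as a description over 319 miRNAs with a mean of at least 10 CPM. The members themselves were left out of the ranking. Libraries of the same number and depth enter every such value. The 95th percentile of r over the 319 was 0.92 for miR-27b-3p, 0.67 for miR-24-3p and 0.83 for miR-27a-3p. It was 0.72 for miR-23b-3p and 0.81 for miR-23a-3p. miR-27b-3p was followed most closely by miR-382-3p (r = 0.98), miR-6329 (0.98) and miR-148a-3p (0.97). miR-27a-3p was followed by let-7i-3p (0.97), miR-218a-5p (0.96) and miR-376b-3p (0.95), and miR-24-3p less closely by miR-30b-3p (0.87), miR-30d-5p (0.86) and miR-183-3p (0.84). The nearest to miR-23b-3p were miR-101a-3p (0.96), miR-101b-3p (0.93) and miR-22-3p (0.92), and to miR-23a-3p miR-339-5p (0.96), miR-142-5p (0.95) and miR-324-5p (0.95). Of these 15 miRNAs, miR-218a-5p was the only one called with the block (log2 fold change -0.33 ± 0.10, edgeR adjusted p = 0.0223), and none was called with group alone. Among all tested miRNAs, 11.7% were called with the block (5.62% lower) and 0.648% with group alone.

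Of 10 miRNAs listed for endothelium and vessel growth, where miR-23 and miR-27 are best known, 1 rose with the block and none fell, where 6.05% of all tested miRNAs were called higher and 5.62% lower, and none was called with group alone. On the totals behind the RPM values with the block, none of the 10 was called higher and 1 lower (miR-126a-5p, log2 fold change -0.63, edgeR adjusted p = 0.00237). miR-221-3p, a regulator of endothelial and smooth muscle growth, averaged 372.9 ± 72.4 CPM in CCI-ION and 269.2 ± 20.2 CPM in sham (SD, n = 3 each; log2 fold change with the block 0.45 ± 0.11, edgeR adjusted p = 0.00233, and 0.447 with group alone). On the RPM totals with the block its log2 fold change was 0.11 (edgeR adjusted p = 0.61). miR-126a-3p, the endothelial miRNA with the highest level in the list, averaged 13153 ± 2154 CPM in CCI-ION and 13046 ± 2408 CPM in sham. The list median was 0.07, against 0.01 for all tested miRNAs. Its summed level was 11704 to 16162 CPM in CCI-ION and 11088 to 15437 CPM in sham.

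Other cell type lists were read from the same fits, each count with the block first and against the same 6.05% and 5.62% of all tested miRNAs. These lists were chosen with earlier results of these data known, which the shares over all tested miRNAs do not allow for. Of 5 muscle miRNAs, 2 fell, miR-1b and miR-133a-3p, and none was called with group alone (list median -0.49). Of 6 leukocyte miRNAs, 3 rose, miR-142-3p, miR-155-5p and miR-342-3p, and none was called with group alone (list median 0.44). Their summed level was 352.4 to 381.6 CPM in CCI-ION and 271.4 to 301.7 CPM in sham. Of 3 tested fibroblast miRNAs 1 rose (miR-199a-5p), of 6 sensory neuron miRNAs 1 fell (miR-124-3p), and of 4 tested glial miRNAs 1 rose (miR-219a-1-3p), which was also called with group alone. None of 4 mural and 4 blood miRNAs was called.

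These counts depended on the scaling. On the totals behind the RPM values with the block, where 1.3% of all tested miRNAs were called higher and 32.8% lower, no leukocyte or fibroblast miRNA was called. The adjusted p-values of edgeR were then 0.052 for miR-142-3p, 0.221 for miR-155-5p, 0.45 for miR-342-3p and 0.704 for miR-199a-5p, with log2 fold changes of 0.39, 0.29, 0.15 and 0.08. On that scale 5 of 6 sensory neuron miRNAs were called lower (miR-183-5p, miR-96-5p, miR-124-3p, miR-9a-5p and miR-9a-3p), as were 3 of 5 muscle miRNAs (miR-1b, miR-133a-3p and miR-206-3p), 2 of 4 glial ones (miR-338-3p and miR-338-5p), 1 mural one (miR-143-3p) and 1 of blood (miR-144-3p). miR-219a-1-3p was called higher on both scales.

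With group alone and TMM factors the list medians were 0.34 for fibroblasts, -0.16 for sensory neurons, 0.16 for glia, 0.10 for mural cells and 0.24 for blood. Summed fibroblast levels were 5583 to 10465 CPM in CCI-ION and 5457 to 7212 CPM in sham, and summed glial levels were 4928 to 5985 CPM in CCI-ION and 5758 to 6715 CPM in sham. No member of these lists was at 0 in all libraries, and their part in the levels of miR-23, miR-27 and miR-24 was not tested.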

How the data were processed

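Small RNA of trigeminal ganglia was profiled in 3 CCI-ION and 3 sham libraries, grouped by sample title. The authors deposited raw counts for 650 mature miRNAs and RPM values per library, made with cutadapt 1.14 and Bowtie 1.1.1 on rn6, per the submitters' processing notes. The counter, annotation and multi-match rule are not given in the sources that were used. Deposited RPM values were the counts times 1 constant per library: 100% of them gave whole reads within 0.01 read.

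Counts were tested with edgeR 4.0.16 in R 4.3.3 (robust quasi-likelihood fit, TMM factors, filterByExpr, 463 miRNAs kept) with Benjamini-Hochberg adjustment over all of them and a threshold of 0.05. Alternatives used limma-voom (limma 3.58.1) and DESeq2 1.42.0. The procedure was tested on simulated data. Levels are TMM-scaled CPM, ratios use counts plus 0.5, and sequences were matched to RefSeq (GRCr8). The fit with group alone was the main one and the replicate block an alternative. Deviations from group means in log2 CPM correlated at 0.664, 0.591 and 0.457 between libraries of the same number, and at -0.614 to 0.166 otherwise, so the numbers, which come from the sample titles, were taken to pair the libraries. What they stand for is not stated. The pairing was read from the same expression values that the block fit uses. Number 1 also had the highest miRNA total in both groups, 11014970 counts in CCI-ION and 12560545 in sham. For number 1, replicate number and depth therefore cannot be told apart. The rule for named miRNAs took the members, miRNAs with a member's seed, the 3 most similar to each abundant member, and called or most abundant members of the lists. miR-128-3p, miR-673-5p and miR-3074 lie outside it. Members and lists were chosen with earlier results of these data known.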

Additional observations from a re-analysis of the deposited data

How the results depend on the processing

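The number of miRNAs called among all tested was 3 with group alone and 54 with the replicate block. It was 6 with the totals behind the RPM values, 158 with those totals and the block, 60 with upper quartile factors and the block, 6 without the filter on low counts, 9 with DESeq2, 44 with DESeq2 and the block, 56 with limma-voom and the block, and 45 with near-identical members summed and the block. Leaving out 1 library gave 1 to 7 calls, and leaving out a numbered pair with the block gave 45 without number 1, 31 without number 2 and 5 without number 3. The cause was not tested. The share of miRNA counts held by the members differed by -0.83 percentage points, from -1.29 to -0.28 when 1 library was left out and -1.61 as a share of the total behind the RPM values.

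Over 220 alternative values for the 10 tested members, 187 kept the direction and stayed uncalled, 26 changed sign and 7 were called. The calls were the 5 on the RPM totals with the block and the 2 of miR-27a-5p given above. With the RPM totals, without and with the block, miR-23a-3p was at -0.23 and -0.22, miR-24-2-5p at -0.33 and -0.33, miR-27b-5p at -0.25 and -0.27 and miR-23b-5p at -0.0096 and -0.074. With the block on those totals miR-27a-5p was at -0.0029. Upper quartile factors put miR-24-3p at 0.060, and at 0.050 with the block. The summed miR-23a-3p and miR-23b-3p were at -0.0038, which differs in sign from miR-23a-3p alone. With the block the sum was at 0.0018, which differs in sign from miR-23b-3p alone. The value of a sum was counted for both of its members. Without the filter miR-24-2-5p was at -0.012.

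Leaving out 1 library gave -0.31 to 0.016 for miR-27b-3p, -0.10 to 0.039 for miR-24-3p, -0.20 to 0.0095 for miR-23b-3p, -0.0014 to 0.29 for miR-23a-3p, -0.0015 to 0.044 for miR-24-2-5p, -0.011 to 0.24 for miR-27b-5p and -0.12 to 0.59 for miR-23b-5p. Those of miR-27a-3p, miR-24-1-5p and miR-27a-5p kept their sign, at -0.15 to -0.055, -0.29 to -0.14 and 0.26 to 0.51. With the block and a numbered pair left out, the ranges were -0.14 to 0.043 for miR-24-3p, -0.0041 to 0.055 for miR-24-2-5p, -0.029 to 0.19 for miR-27b-5p and -0.12 to 0.48 for miR-23b-5p. Of 117 alternative values for the ratios 10 changed sign, each on leaving out 1 library. The ranges were -0.065 to 0.17 for miR-27a-3p over miR-27b-3p, -0.19 to 0.22 for miR-23b-3p over miR-27b-3p, -0.071 to 0.35 for miR-24-3p over miR-27b-3p, -0.085 to 0.22 for miR-24-3p over miR-23b-3p, -0.54 to 0.023 for miR-27b-3p over miR-27b-5p and -0.14 to 0.027 for miR-24-3p over miR-24-2-5p. With 3 libraries per group no exact test of a ratio could pass 0.05, and depth limits mainly miR-23a-5p, with 2 to 19 counts.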
